A study of Mus musculus with 9 samples.

Results

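The 6 colonies of mouse brain tumor stem cells in which Gpd1 had been targeted were compared according to how far their RNA profiles lay from those of 3 control libraries. The 3 colonies farthest from control, T6g1_10, T6g1-18 and T6g2-27, are called strongly shifted here. The other 3, T6g1-8, T6g2-10 and T6g2-9, are called weakly shifted. The study holds 9 poly(A) RNA libraries: T6_1, T6_2 and T6_3 from the unedited brain tumor stem cell line, 3 from colonies edited with sgRNA1 (names with g1) and 3 from colonies edited with sgRNA2 (names with g2). All edited cells received a Cas9 vector by transfection, were selected with puromycin and were expanded from colonies that each grew from 1 cell, so each of these libraries stands for 1 clone. Per the labels, the loss of the protein was checked by Western blot and the edit by sequencing. Whether the control cells also went through selection and colony picking is not given in the sources used here. The 2 sets were picked from the same expression profiles that are described below, and each holds colonies of both guides. Differences between them are therefore given as descriptions without a test, and the number of genes that differ follows in part from how the sets were chosen.

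The product of Gpd1 is an enzyme of the cytosol that reduces a glycolytic intermediate, dihydroxyacetone phosphate, to glycerol-3-phosphate, and so joins glycolysis to lipid synthesis. Its mitochondrial partner Gpd2 oxidizes glycerol-3-phosphate and passes the electrons to the respiratory chain, and the pair form the glycerol phosphate shuttle. Brain tumor stem cells are cultured tumor cells that keep properties of neural stem cells: they divide, express proteins such as nestin and Sox2, and can turn on genes of astrocytes, oligodendrocytes and neurons. A cell that leaves the division cycle lowers a common set of replication and mitosis genes, many of which are controlled by E2F and CCAAT-binding factors.

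Both guide sequences are shown because every set of colonies mixes them. Each targets coding sequence near the start of Gpd1 (GRCm38, GENCODE M21 transcript), and the capitals mark the 3-base PAM that Cas9 needs next to its target.
sgRNA1: aaagtctgcattgtcggctcTGG
sgRNA2: tgcattgctacccacgatctTGG
The target of sgRNA1 lies on the plus strand at chr15:99717620-99717639, in exon 1 of 8. The target of sgRNA2 lies on the minus strand at chr15:99718169-99718188, in exon 2 of 8. Gpd1 itself spans chr15:99717515-99725005 on the plus strand and shares exon sequence with the antisense gene Gm16537, whose reads cannot be told apart from those of Gpd1 where the counting did not use strand.

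The values that chose the colonies were the root mean square differences from the control mean, computed on log2(normalized read count + 1) over the 15830 of 21899 genes with a mean of at least 10 in the 6 edited colonies. The distances were 1.28 for T6g1_10, 1.25 for T6g1-18 and 1.15 for T6g2-27, against 1.06 for T6g2-9, 0.804 for T6g1-8 and 0.765 for T6g2-10. The line between the sets thus runs between T6g2-27 and T6g2-9, whose distances differ by a factor of 1.08. Each control library lay 0.273 to 0.298 from the mean of the other controls, whereas the edited colonies were set against the mean of all controls. T6g1_10 had 2405 genes at least 2-fold above all controls and 2238 at least 2-fold below all controls, and T6g2-10 had 780 and 612. T6g2-9 had 1669 and 1428, nearer to the 1965 and 1803 of T6g2-27 than to the 880 and 699 of T6g1-8.

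The weakly shifted set was less even than the strongly shifted set. T6g1-8 and T6g2-10, edited with different guides, were the closest pair of all, 0.437 apart (r = 0.990 across genes). T6g2-9 lay 0.799 and 0.752 from these libraries. Pairs of strongly shifted colonies lay 0.560 to 0.624 apart, and strong-weak pairs 0.698 to 0.993. The median SD of a gene on the log2 scale was 0.194 among the strongly shifted and 0.263 among the weakly shifted colonies (n = 3 each), against 0.086 among the controls. Because T6g2-9 stands apart from the other weakly shifted colonies, its own value is given with each result below.

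Gpd1 RNA was below all controls in every edited colony, but its level did not order the colonies as the distance did. Gpd1 was at 25106, 26566 and 25836 normalized read counts in the controls. In the strongly shifted colonies it was at 3299 in T6g1_10, 1347 in T6g1-18 and 10812 in T6g2-27, which is 12.8%, 5.21% and 41.8% of the control mean. In the weakly shifted colonies it was at 21351 in T6g1-8, 10812 in T6g2-10 and 6945 in T6g2-9, or 82.6%, 41.8% and 26.9% of the control mean. The strongly shifted T6g2-27 and the weakly shifted T6g2-10 thus had the same Gpd1 value, and T6g2-9 was below both. An edit that shifts the reading frame need not remove the transcript, so these RNA levels do not check the loss of protein.

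The other glycerol-3-phosphate dehydrogenases behaved differently from each other. Gpd2 was at 9913, 10089 and 9954 in the controls. It was at 5560, 5328 and 7308 in the strongly shifted colonies, always given in the order T6g1_10, T6g1-18, T6g2-27. It was at 10079, 9080 and 6644 in the weakly shifted colonies, always given in the order T6g1-8, T6g2-10, T6g2-9. Where values are set against each other without naming the sets, those of the strongly shifted colonies come first. The sets overlapped for Gpd2, through T6g2-27 and T6g2-9. Gpd1l, a cytosolic relative of Gpd1, was above all controls (5337, 4983 and 5017) in all 6 colonies, at 6606, 7538 and 7247 in the strongly shifted and 6754, 6691 and 8021 in the weakly shifted ones. Its mean log2 difference between the sets was -0.0021.

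**Figure D1:**
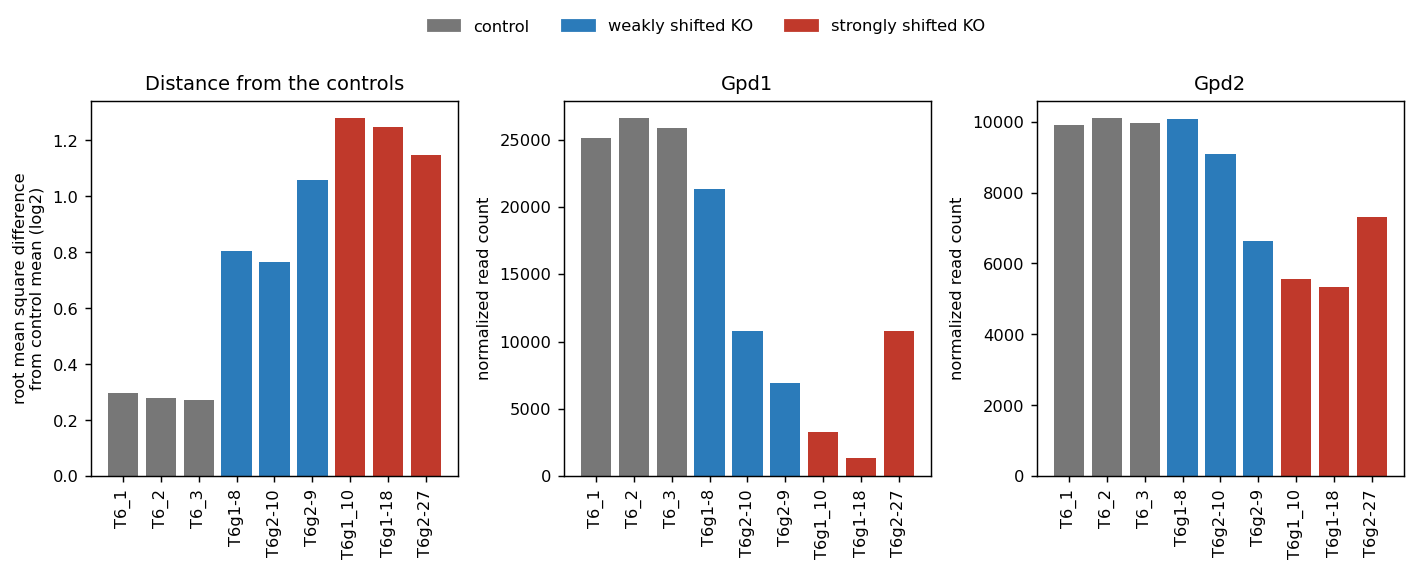
Distance from the control mean (root mean square log2 difference), Gpd1 and Gpd2 (normalized read counts) in each of the 9 libraries, one bar per library. The distance of a control is taken from the mean of the other controls. Controls are in grey, weakly shifted colonies in blue and strongly shifted colonies in red. The distance steps from 1.06 in T6g2-9 to 1.15 in T6g2-27, while Gpd1 is at 10812 in a colony of each set.

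A gene was counted where the 3 strong and 3 weak values did not overlap and the mean log2 values differed by at least 1, that is, 2-fold. By this count 900 genes (5.69%) were higher and 876 (5.53%) lower in the strongly shifted colonies. A further look without the size limit found 6792 genes (42.9%) whose values did not overlap. The list counts below are to be read against these shares of all genes. The median difference of all 15830 genes was 0.01 on the log2 scale. Library totals were 39781901 to 42975283 normalized reads, and those of the sets overlapped. Since each guide was used in both sets, the difference could also be taken within a guide, with 2 colonies against 1 in sgRNA1 and 1 against 2 in sgRNA2. Of the 900 genes counted higher, 458 (50.9%) were at least 2-fold higher with each guide on its own, and of the 876 counted lower, 418 (47.7%) were at least 2-fold lower with each. The genes were counted on the same colonies, so these shares follow in part from the count and are a description. Of all 15830 genes, 941 differed at least 2-fold in the same direction with both guides and 101 in opposite directions. Over all 15830 genes, the within-guide differences had r = 0.528, across genes that are not independent replicates.

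Set against the controls, most of the genes counted lower were below them in both sets of colonies. Of the 876, 482 (55%) were below all controls in all 6 colonies, and 285 (32.5%) were below them in the strongly shifted colonies while the weakly shifted ones overlapped the controls. Of the 900 counted higher, 345 (38.3%) were above all controls in all 6 colonies and 387 (43%) were above them only in the strongly shifted set, with overlap in the other. Over all 15830 genes the same positions held 22.9% (below in all 6 colonies), 12.9% (below in the strongly shifted, overlap in the weakly shifted), 21.5% (above in all 6) and 14% (above in the strongly shifted, overlap in the weakly shifted). A smaller number lay on opposite sides of the controls: 47 genes were above in the strongly and below in the weakly shifted colonies, and 36 were the reverse. The sets share these controls, so the counts describe positions and are not separate evidence for each set.

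**Figure D2:**
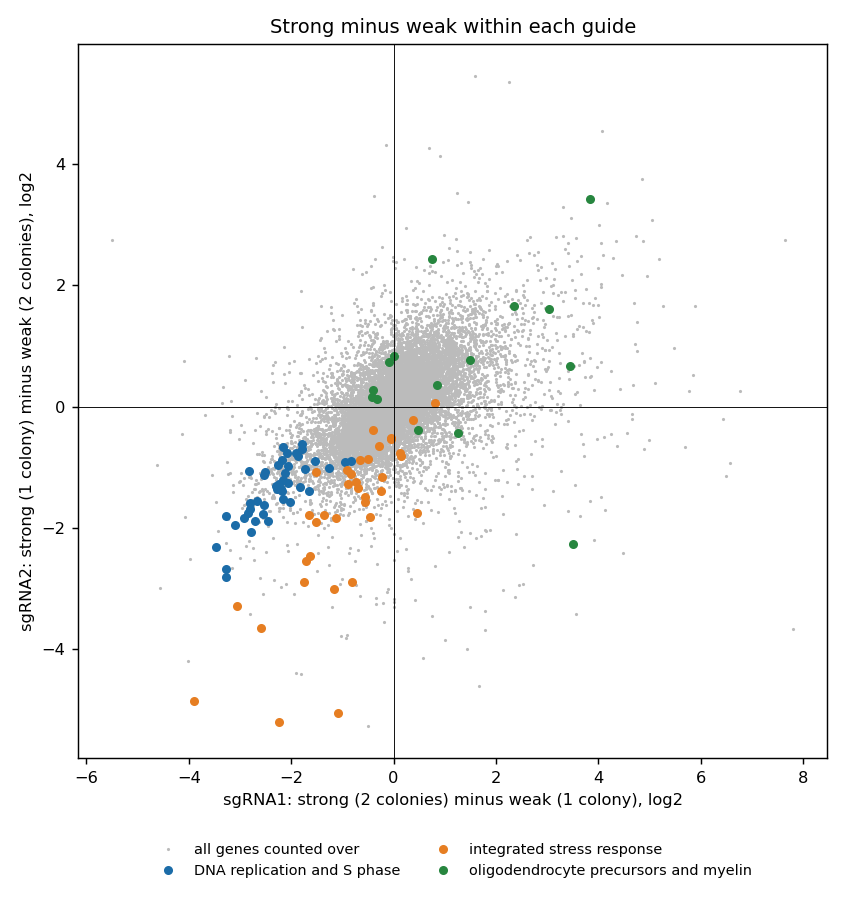
Strong minus weak difference in log2(value + 1) for each of 15830 genes, within sgRNA1 (horizontal) and within sgRNA2 (vertical), with 3 gene lists coloured. Replication genes are negative with both guides, integrated stress genes lie lower on the sgRNA2 axis, and several oligodendrocyte genes are positive on both.

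Genes of DNA replication were the list with the lowest median. Of 44 measured, 40 (90.9%) were counted lower and 0 higher in the strongly shifted colonies, against 5.53% and 5.69% of all genes. The median log2 difference was -1.82. Averaged over the list, log2 values minus the control mean were -3.01, -2.86 and -2.31 in the strongly shifted colonies and -0.64, -0.72 and -1.15 in the weakly shifted ones. The median was -2.22 within sgRNA1 and -1.32 within sgRNA2. The 4 genes not counted were Pola1 and Ccne2, which overlapped through low values in T6g2-9, and Gins4 and Orc6, which did not overlap but differed by less than 2-fold.

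Cdt1 and Cdc6 load the replicative helicase onto origins, and Mcm3 is a subunit of that helicase. Cdt1 (chr8:122568015-122573554) was at 2215, 2671 and 2620 in the controls, at 1351, 1355 and 2078 in the weakly shifted and at 108, 180 and 237 in the strongly shifted colonies. Cdc6 (chr11:98907801-98923940) was at 2049, 2465 and 2399 in the controls, at 976, 1083 and 1047 in the weakly shifted and at 75, 132 and 165 in the strongly shifted colonies. Mcm3 (chr1:20802968-20820312) was at 20552, 22824 and 22398 in the controls, at 16975, 12024 and 16749 in the weakly shifted and at 1189, 1991 and 2849 in the strongly shifted colonies. For all 3 genes every strongly shifted colony was far below every weakly shifted one, and T6g2-27 was the highest of the strong set. Their log2 differences were -3.22, -3.12 and -2.99.

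E2F factors switch on replication genes at the start of S phase, so the 250 bases before the RefSeq gene starts (GRCm38.p6) were searched on both strands for the E2F sequence GGCGGGAA. It was present in 4 of 41 windows of this list (9.76%) and in 1.86% of all 32851 windows, and 35 of the 44 genes had a window. The windows of Cdt1, Cdc6 and Mcm3, described above, held 0 matches. All 4 genes with a match were counted lower, as were 40 of the 44 genes of the list. Their matches are shown with the motif in capitals, and they describe letters rather than binding.
Chaf1a: cgctcgtatttGGCGGGAAccgcggcaacc
Prim1: gagaattGGCGGGAAcaagacaggcc
Rrm1: aaagcggacctGGCGGGAAcgagttctcct
Uhrf1: gctggcgctgtGGCGGGAAgcgagaaagca
They lie on the minus strand at chr17:56040358-56040387 (Chaf1a), chr10:128015189-128015214 (Prim1), chr7:102441617-102441646 (Rrm1) and chr17:56303278-56303307 (Uhrf1). Chaf1a, a histone chaperone subunit that packs new DNA, was at 2940, 2906 and 2848 in the weakly and 439, 454 and 778 in the strongly shifted colonies. Rrm1, a subunit of the enzyme that makes deoxyribonucleotides, was at 17645, 16576 and 8528 in the weakly and 5331, 4864 and 7775 in the strongly shifted colonies, a narrow gap at T6g2-9 and T6g2-27. Matches of this sequence and of the ATF4, CCAAT and TTTGAA sequences described below shared bases with one another in 54 of 32851 windows, 1 of them from this list.

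Genes of mitosis and cytokinesis showed the same order of sets, with a wider range among the strong colonies. Of 40 measured, 34 (85%) were counted lower and 0 higher, against 5.53% and 5.69% of all genes. The median log2 difference was -1.40. Without T6g1-18, 24 were counted lower and the median was -1.06. The list mean minus control was -2.02, -2.63 and -1.39 in the strongly shifted colonies and -0.41, -0.45 and -0.96 in the weakly shifted ones. Here T6g1-18 was the lowest colony, whereas T6g1_10 was lowest for replication genes. Within sgRNA2 alone, T6g2-27 was below both of its weakly shifted partners, with a mean difference of at least 2-fold, for 7 of the 40 genes, and the median was -0.66.

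Aurkb and Birc5 belong to the chromosomal passenger complex that corrects chromosome attachment, and Aurka builds the spindle poles. Aurkb (chr11:69045647-69051664) was at 4816, 5086 and 5080 in the controls, 3640, 3624 and 3338 in the weakly shifted and 624, 461 and 1187 in the strongly shifted colonies. Birc5 was at 3103, 3213 and 3666 in the weakly and 786, 684 and 1294 in the strongly shifted colonies. Aurka was at 3606, 3708 and 3723 in the weakly and 960, 706 and 1587 in the strongly shifted colonies. None of these sets overlapped, and T6g2-9 was close to the other weakly shifted colonies for all 3 genes. For Mki67, named here after its values were seen because it is a common proliferation marker, T6g2-9 at 7451 was instead below the strongly shifted T6g1_10 (9838) and T6g2-27 (14312), so the sets overlapped.

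CCAAT was present in 26 of 36 windows of the mitosis list (72.2%), in 58.5% of those of the replication list and in 33.8% of all windows. The TTTGAA sequence of cell cycle homology regions was present in 30.6% of mitosis windows and 16% of all. The window of Birc5 held 0 matches of either sequence. The 150 bases before the Aurka start (minus strand, chr2:172370571-172370720) are shown as an example with 2 CCAAT sequences in capitals, the first bases of which lie 51 and 19 bases before the start.
Aurka: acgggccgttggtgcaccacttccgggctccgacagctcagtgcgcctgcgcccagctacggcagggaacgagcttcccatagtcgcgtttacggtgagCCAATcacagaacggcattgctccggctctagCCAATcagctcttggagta

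**Figure D3:**
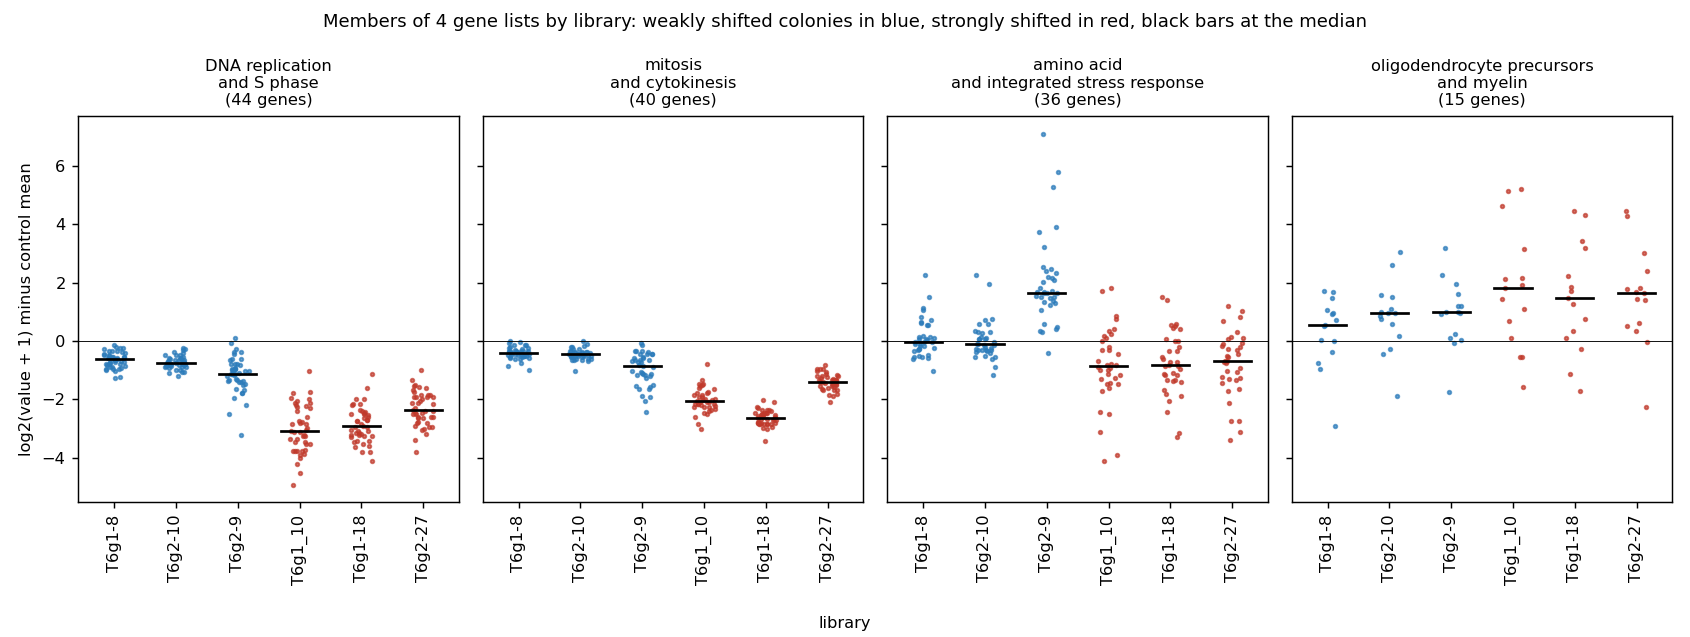
Each point is a member of 1 of 4 gene lists in 1 edited colony, as log2(value + 1) minus the control mean, with weakly shifted colonies in blue, strongly shifted in red and the median as a bar. The 44 replication and 40 mitosis genes are low in all 3 strongly shifted colonies, and the 36 integrated stress genes are high in T6g2-9.

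Regulators of the step from G1 into S were mixed. Of 12 D cyclins, their kinases and pocket proteins, 5 (41.7%) were counted lower and 0 higher, against 5.53% and 5.69% of all genes. Ccnd2, a D cyclin, was at 24943, 22071 and 27214 in the weakly and 5280, 5753 and 8240 in the strongly shifted colonies, with controls at 27770, 37712 and 35219. Ccnd1, the other D cyclin of glioma cells, was already low in the weakly shifted colonies, at 17091, 13600 and 8032 against 49394, 70271 and 66375 in the controls, and was at 2178, 5044 and 4881 in the strongly shifted ones. Rbl1, a pocket protein that is itself an E2F target, was at 2966, 2871 and 2606 in the weakly and 964, 881 and 1372 in the strongly shifted colonies. Rbl1, Ccnd1 and Ccnd2 did not overlap between the sets.

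The genes for inhibitors of cyclin-dependent kinases did not move as a block. Of 21 measured inhibitors and antiproliferative genes, 2 were counted higher and 2 lower (9.52% each, against 5.69% and 5.53% of all genes). Cdkn1a, which encodes p21, was at 11086, 12344 and 14220 in the weakly shifted colonies, above the 9754, 10768 and 11007 of the controls, and at 4265, 4906 and 5638 in the strongly shifted ones. Cdkn2d was likewise low, at 933, 601 and 989 against 2112, 2301 and 1771. Cdkn1c, which encodes p57, was at 86, 72 and 71 in the strongly and 43, 24 and 20 in the weakly shifted colonies. Ndrg2, an antiproliferative gene of astrocytes, was at 29667, 21848 and 12092 in the strongly and 2999, 1874 and 4912 in the weakly shifted colonies, against 1171, 501 and 678 in the controls. In these bulk libraries, fewer cells of a kind and less RNA in each such cell cannot be told apart, for cycling cells or for any cell type named below.

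Transcripts of the mitochondrial genome moved with the sets. Of 7 measured, 6 were higher without overlap in the strongly shifted colonies, each by less than 2-fold. The summed values of these genes were 1294083 to 1511744 in the strongly shifted, 1052564 to 1163222 in the weakly shifted and 949150 to 1174566 in the control libraries. The part of this shift in the other differences was not tested.

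Integrated stress genes were lower in the strongly shifted colonies by the count and high in T6g2-9. This response, run by the transcription factor ATF4, turns on amino acid transport, amino acid synthesis and tRNA charging when amino acids are short or protein folding fails. Of 36 measured genes, 23 (63.9%) were counted lower and 0 higher in the strongly shifted colonies, against 5.53% and 5.69% of all genes. The median log2 difference was -1.23. The list mean minus control was -0.84, -0.77 and -0.78 on the log2 scale in the strongly shifted colonies. It was 0.12 in T6g1-8, 0.02 in T6g2-10 and 2.03 in T6g2-9. Without T6g2-9, 14 of the 36 were counted lower and the median was -0.68.

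Nupr1 and Trib3 are stress-induced targets of ATF4, and Mthfd2 is a mitochondrial enzyme of one-carbon metabolism. Nupr1 (chr7:126623249-126630861) was at 34, 32 and 37 in the controls, 12, 9 and 30 in the strongly shifted colonies and 169, 168 and 4851 in the weakly shifted ones. Trib3 (chr2:152337422-152344032) was at 141, 147 and 146 in the controls, 16, 26 and 21 in the strongly shifted and 100, 116 and 5711 in the weakly shifted colonies. Mthfd2 (chr6:83305691-83325908) was at 2818, 3670 and 3658 in the controls, 223, 339 and 505 in the strongly shifted and 2292, 2283 and 10901 in the weakly shifted colonies. For all 3 genes the strongly shifted colonies were also below T6g1-8 and T6g2-10, so the order of the sets did not need T6g2-9, but the size of the difference did.

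The ATF4 sequence TGATGNAA, searched on both strands of the same windows, was present in 8 of 36 windows of this list (22.2%) and in 3.45% of all windows, with 30 of the 36 genes having a window. The windows of Trib3 and Mthfd2 held 0 matches. All 8 genes with a match were counted lower in the strongly shifted colonies, as were 23 of the 36 genes of the list. The matches of 7 of the 8 genes are shown with the motif in capitals, and Slc7a11 held a pair.
Asns: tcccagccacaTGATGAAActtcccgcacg
Chac1: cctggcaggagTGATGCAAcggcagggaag
Gars: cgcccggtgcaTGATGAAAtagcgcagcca
Nupr1: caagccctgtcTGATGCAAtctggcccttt
Pycr1: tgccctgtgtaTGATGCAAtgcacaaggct
Slc7a11, nearer to the start: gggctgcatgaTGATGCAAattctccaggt
Slc7a11, farther from the start: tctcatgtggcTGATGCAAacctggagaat
Vldlr: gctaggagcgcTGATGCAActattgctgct
They lie at chr6:7693214-7693243 (Asns), chr2:119351038-119351067 (Chac1), chr6:55037960-55037989 (Gars), chr11:120643833-120643862 (Pycr1) and chr19:27216809-27216838 (Vldlr), all on the minus strand. The Nupr1 match lies on the plus strand at chr7:126625562-126625591, and those of Slc7a11 lie at chr3:50443642-50443671 on the plus and chr3:50443661-50443690 on the minus strand. Asns, which makes asparagine, was at 3185, 2734 and 18063 in the weakly and 1074, 884 and 1196 in the strongly shifted colonies, with controls at 3142, 3343 and 3348. Chac1, which breaks down glutathione, was at 91, 65 and 3311 in the weakly and 59, 30 and 13 in the strongly shifted colonies. Slc7a11, the cystine importer, was at 2485, 1668 and 10450 in the weakly and 1274, 740 and 1210 in the strongly shifted colonies, above the control range of 1112 to 1127 in all colonies except T6g1-18. In T6g1-8 and T6g2-10, Asns lay around the lower end of the control range and Chac1 around its upper end, since Chac1 was at 53, 72 and 55 in the controls.

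The list mean of ribosome assembly genes, minus control, was -2.22, -1.86 and -1.86 on the log2 scale in the strongly shifted and -1.16, -1.14 and -0.94 in the weakly shifted colonies. Of 27 nucleolar assembly factors and Myc targets, 9 were counted lower, 16 more were lower without overlap by less than 2-fold, and 0 were higher, with a median of -0.91. Rrp12, an export factor of the small subunit, was at 2151, 2708 and 2646 in the controls, 850, 842 and 1705 in the weakly and 286, 449 and 406 in the strongly shifted colonies. Nop56, a core protein of box C/D particles, was at 4344, 5324 and 5068 in the controls, 2089, 2153 and 4825 in the weakly and 881, 1186 and 1231 in the strongly shifted colonies. T6g2-9, at 4825, lay within the control range for Nop56. Cytosolic ribosomal protein genes had a smaller difference, with 0 of 40 counted, 26 lower without overlap by less than 2-fold and a median of -0.27. Over all genes, 5.53% were counted lower and 42.9% did not overlap, in either direction and whatever the size of the difference. The part of the reads that comes from the antisense neighbours of Nop56 and Nhp2, which share exon sequence with them, cannot be separated.

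Ras-MAPK feedback genes, which report signalling from growth factor receptors, were counted lower for 4 of 18 (22.2%) and higher for 0 (median -0.62). Over all genes, 5.53% were counted lower and 5.69% higher. Without T6g1_10, 2 Ras-MAPK genes were counted lower (median -0.19). Spry1, a feedback inhibitor, was at 5468, 3128 and 7213 in the weakly and 675, 2446 and 3126 in the strongly shifted colonies, which nearly touch at T6g2-27 and T6g2-10. Etv4, a transcription factor below ERK, was at 5484, 5495 and 6281 in the weakly and 1548, 2643 and 2642 in the strongly shifted colonies, against 4472, 4269 and 4534 in the controls. Etv4 was thus above all controls in one set and below all controls in the other. Among p53 targets, 7 of 23 (30.4%) were counted lower and 0 higher, and 4 were counted lower without T6g1_10. The 7 included the mitosis gene Gtse1 (755, 535 and 1450 against 4115, 4050 and 3080). Sesn2 (2507, 1740 and 2557 against 3082, 3887 and 13220), also among the 7, is on the integrated stress list too.

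Lists of glial and neuronal differentiation had larger shares counted higher than all genes, although most members were not counted. The shares were 33.3% for oligodendrocyte, 26.1% for astrocyte and 26.1% for neuronal genes, against 5.69% of all genes. Of 15 measured oligodendrocyte precursor and myelin genes, 5 were counted higher and 0 lower (median 0.45). Of 23 astrocyte genes, 6 were higher and 1 lower (median 0.56), and of 23 neuronal genes 6 were higher and 2 lower (median 0.54). Without T6g2-27, 10 astrocyte genes were higher, but the count over all genes rose too, from 900 to 1259 higher. Within sgRNA2 alone the medians were 0.67 for oligodendrocyte, 0.09 for astrocyte and -0.10 for neuronal genes. Without T6g2-9 the oligodendrocyte median was 0.85 and the astrocyte median 0.96, and without T6g1-8 the neuronal median was 0.30. The sets' list means overlapped for astrocyte genes (1.42 in T6g2-9 and 1.20 in T6g2-27) and for neuronal genes (0.58 and 0.39 in these colonies). Of 25 neural and glioma stem cell markers, a list that contains the targeted gene Gpd1, 2 were higher and 0 lower (median 0.08).

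Gpr17 encodes a receptor of maturing oligodendrocyte precursors and Pdgfra the growth factor receptor that defines those precursors. Gpr17 was at 453, 181 and 255 in the controls, 912, 2314 and 1326 in the weakly and 10109, 5553 and 5360 in the strongly shifted colonies. Pdgfra (chr5:75152292-75198215) was at 613, 420 and 436 in the controls, 921, 1390 and 1105 in the weakly and 4251, 5154 and 3933 in the strongly shifted colonies. Both were above control in every edited colony, and the strong values did not overlap the weak ones. Olig1 and Olig2, lineage factors that the tumor cells already expressed, differed little, with Olig2 at 26003, 30955 and 36809 in the strongly and 38063, 27362 and 39961 in the weakly shifted colonies. Sox10 was high in T6g1_10 alone, at 873 against 26 to 104 in the other 8 libraries.

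Among astrocyte genes, Apoe, a lipid carrier, was at 201715, 197380 and 129731 in the strongly and 34551, 25482 and 77778 in the weakly shifted colonies, against 11072, 6613 and 7134 in the controls. Aqp4, the water channel of astrocyte endfeet, was at 24776, 8628 and 4624 in the strongly and 1141, 3028 and 2083 in the weakly shifted colonies. S100b, a calcium-binding protein of glia, was at 10047, 9477 and 11812 in the strongly and 4578, 1877 and 1967 in the weakly shifted colonies. These 3 did not overlap between the sets. Gfap, named after its values were seen as the filament protein that usually marks astrocytes, did overlap: it was at 16039 and 23509 in the strongly shifted sgRNA1 colonies but at 916 in T6g2-27, below the 2118 of T6g2-9 and the 3348 to 4827 of the controls. Cbs, an enzyme of cysteine synthesis, was the member counted lower, at 5568, 5159 and 5963 against 10267, 9592 and 24080.

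Neuronal genes were split. Dcx, a microtubule protein of newborn neurons, was at 110, 159 and 72 in the strongly and 2, 34 and 39 in the weakly shifted colonies, with 4 to 6 in the controls. Neurog2, a transcription factor that starts neurogenesis, was at 205, 162 and 174 in the strongly and 17, 37 and 21 in the weakly shifted colonies. Tubb3, a neuronal tubulin, was at 1369, 1851 and 301 against 119, 192 and 170. Gap43, a growth cone protein, and Rbfox3, a splicing factor of mature neurons, were counted lower, with Gap43 at 147, 69 and 210 against 363, 319 and 473, and 2397 to 2660 in the controls. Rbfox3 was at 19, 42 and 65 against 158, 99 and 480.

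The labelled cell type was checked against its markers. Nes, Sox2 and Olig2 were abundant in all 9 libraries, with Nes from 37297 to 46053 in the controls, 21931, 24740 and 15458 in T6g2-10, T6g1-8 and T6g2-9, and 8451, 15096 and 18786 in the strongly shifted colonies. Prom1, another stem cell marker, was at 3 to 31 throughout. Lgr5, a Wnt target and stem cell gene, was at 567, 558 and 584 in the strongly and 234, 330 and 139 in the weakly shifted colonies. Nes overlapped between the sets, and Sox2 did too, from 12219 to 16454 in the strongly and 11565 to 23374 in the weakly shifted colonies.

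Markers of cells that should not be in the culture were low. For microglia, 8 of 16 listed markers were measured and 5 passed the filter, 1 counted higher and 1 lower. The summed values were 2015 to 2520 in the strongly shifted, 1457 to 2886 in the weakly shifted and 830 to 911 in the control libraries. Aif1 was at 0 to 7 and Csf1r at 0 to 5 in the edited colonies. Ptprc, which marks blood-derived cells, was at 0 in all strongly shifted colonies and at 0, 2 and 4 in the weakly shifted ones. For endothelium, 11 of 14 were measured and 7 passed, 0 counted, with sums of 253 to 309 in the strongly and 281 to 414 in the weakly shifted colonies and Tie1 at 0 to 3. For pericytes and fibroblasts, 11 of 15 were measured and 6 passed, with sums of 9177 to 13829 and 6302 to 9646 carried by Notch3, and with Pdgfrb at 0 to 3 in the edited colonies. For ependymal cells, 14 of 16 were measured and 9 passed, 0 counted, with sums of 2022 to 3503 and 2330 to 3368. Myh11, a smooth muscle myosin, was the pericyte-list gene counted higher, at 599, 363 and 597 against 131, 178 and 141.

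Notch signalling between neighbouring cells keeps neural stem cells undifferentiated. Of 18 measured Notch genes, 4 (22.2%) were counted higher and 0 lower, against 5.69% and 5.53% of all genes. A further 5 were higher without overlap by less than 2-fold. The other 9 overlapped, and over all genes 42.9% did not overlap, whatever the size of the difference. Dll3, a ligand of progenitor cells (chr7:28293553-28302238), was at 320, 182 and 207 in the controls, 1062, 1302 and 1980 in the weakly and 5119, 5818 and 4053 in the strongly shifted colonies. Dll4, another ligand, was at 41, 32 and 30 in the weakly and 111, 104 and 55 in the strongly shifted colonies, and shares exon sequence with an antisense gene. Hey2, a target of the pathway, was at 86, 199 and 212 in the weakly and 725, 879 and 440 in the strongly shifted colonies. The receptor Notch1 overlapped, at 18479, 22842 and 28546 in the weakly and 24445, 21691 and 20413 in the strongly shifted colonies.

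Of 27 growth factor receptors and ligands, 4 (14.8%) were counted higher, among them Pdgfra, and 0 lower. Over all genes the shares were 5.69% higher and 5.53% lower. Erbb4, a neuregulin receptor (chr1:68032186-69108059), was at 1343, 1118 and 1131 in the controls, 2313, 1967 and 3419 in the weakly and 12348, 14959 and 9145 in the strongly shifted colonies. Kit, the stem cell factor receptor, was at 429, 1057 and 299 in the weakly and 1145, 1929 and 1428 in the strongly shifted colonies, where T6g2-10 nearly reached T6g1_10. Of 27 Wnt, Bmp and Hedgehog genes, 4 were higher and 3 lower (14.8% and 11.1%). Id4, a Bmp target that holds stem cells quiet, was at 1736, 1826 and 1346 in the strongly and 151, 184 and 818 in the weakly shifted colonies, while the ligand Bmp7 was at 532, 899 and 1122 against 2008, 2447 and 2101.

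Axon guidance genes had members on both sides, 10 of 33 counted higher (30.3%) and 2 lower (6.06%). Over all genes, the shares were 5.69% and 5.53%. Without T6g1-18, 4 axon guidance genes were counted lower. The semaphorin receptor Nrp2 (chr1:62703285-62818695) was at 394, 447 and 425 in the controls, 217, 476 and 350 in the weakly and 3868, 3383 and 2649 in the strongly shifted colonies. The weakly shifted colonies thus straddled the control range, while all strongly shifted colonies lay above it. The ligand Slit2 was at 32, 194 and 51 in the strongly and 8, 8 and 12 in the weakly shifted colonies, and its receptor Robo1 at 1041, 2608 and 910 against 221, 349 and 619. The ligands Slit1 and Sema4d were counted lower, with Sema4d at 26, 36 and 21 against 55, 45 and 76 and 194 to 231 in the controls.

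**Figure D4:**
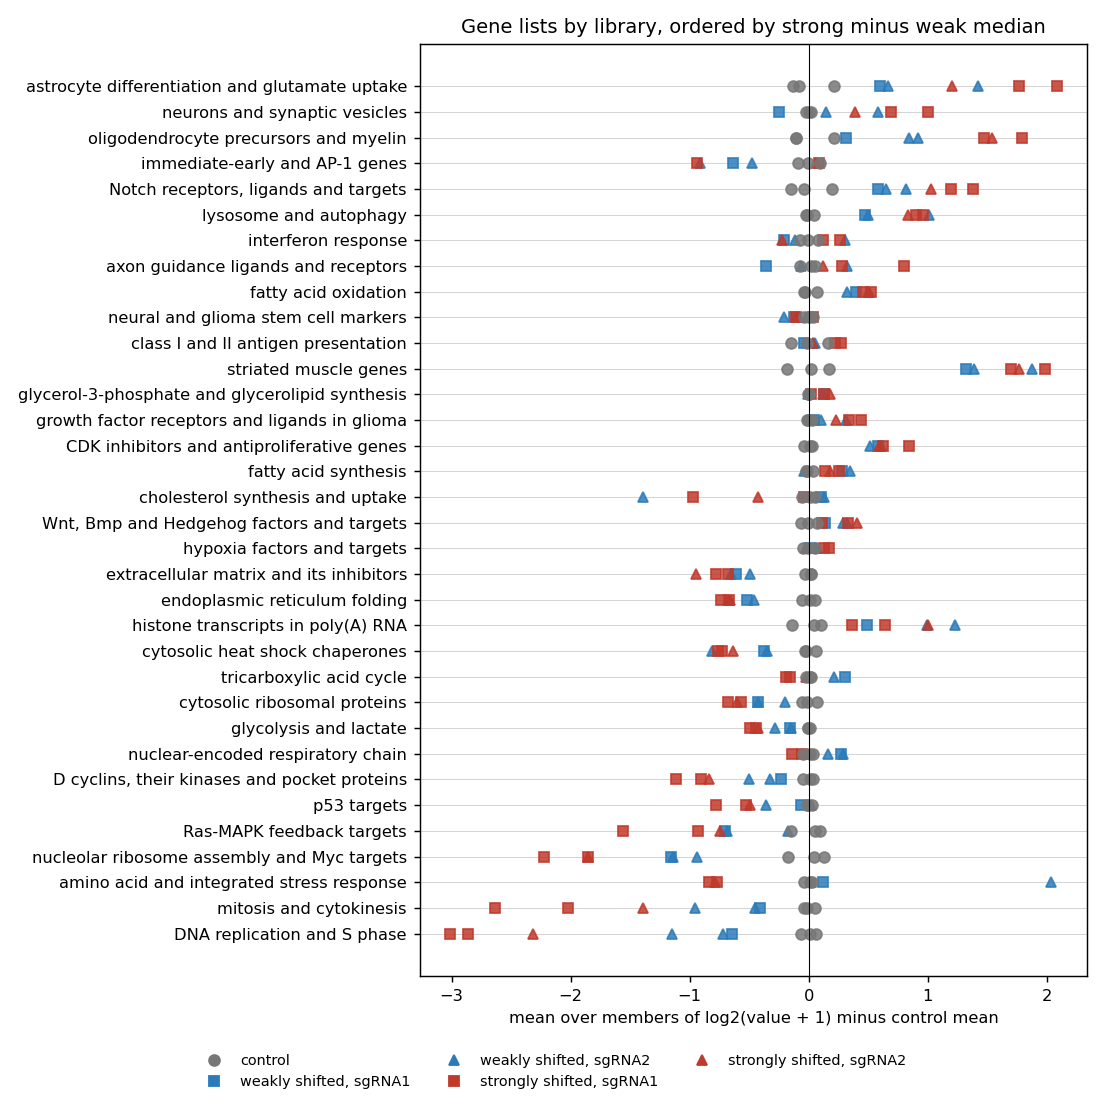
Mean over the members of each gene list of log2(value + 1) minus the control mean, one point per library, for the lists with at least 10 members past the filter, ordered by the median difference between the sets. DNA replication is at -3.01 to -2.31 in the strongly shifted colonies (red) and -1.15 to -0.64 in the weakly shifted ones (blue), and the integrated stress list is at 2.03 in T6g2-9.

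Few metabolic genes were counted, where over all genes 5.69% were counted higher and 5.53% lower. None of 33 glycerol-3-phosphate and glycerolipid genes was counted lower and 1 was counted higher, Mgll, which splits monoacylglycerol and was at 20056, 14311 and 14091 in the strongly and 8690, 9729 and 4629 in the weakly shifted colonies. None of 25 cholesterol genes, 20 fatty acid synthesis genes, 23 citric acid cycle genes or 43 nuclear-encoded respiratory chain genes was counted in either direction. The respiratory chain genes were nevertheless lower without overlap by less than 2-fold for 26 of 43, with a median of -0.32. Over all genes, 42.9% did not overlap, in either direction and whatever the size of the difference. Among 27 fatty acid oxidation genes, Decr1 was the 1 counted, higher at 2054, 2636 and 1973 against 1142, 849 and 1011.

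In glycolysis, 2 of 23 genes were counted higher and 2 lower, and both lactate dehydrogenase subunits were among them. These are 8.7% each way, against 5.69% and 5.53% of all genes. Ldha, the subunit that favours lactate production, was at 5225, 6252 and 7944 in the strongly and 19557, 18428 and 9974 in the weakly shifted colonies, against 21383, 21429 and 21026 in the controls. Ldhb, the subunit of oxidative tissues, was at 10527, 9540 and 15193 in the strongly and 6923, 5743 and 4740 in the weakly shifted colonies, against 3248, 2991 and 3037 in the controls. Ldha was therefore below and Ldhb above all controls in every edited colony, and both were farther from control in the strong set. Hk2, an inducible hexokinase, was at 194, 378 and 379 against 1206, 1041 and 1745. Pdk1, which restrains pyruvate oxidation, was at 1000, 925 and 749 against 391, 384 and 279.

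Of 32 matrix genes, 6 (18.8%) were counted lower and 2 (6.25%) higher, against 5.53% and 5.69% of all genes. Without T6g2-27, 5 were counted higher, but the count over all genes rose too, from 900 to 1259. Tenascin-C, Tnc (chr4:63959785-64047015), a matrix protein of glioma, was at 102568, 156662 and 140592 in the controls, 55279, 47067 and 178764 in the weakly and 5348, 10595 and 18584 in the strongly shifted colonies. T6g2-9 was above all controls for Tnc, while the other weakly shifted colonies were below all of them. The fibrillin gene Fbn1 was at 821, 431 and 1705 in the weakly and 231, 250 and 408 in the strongly shifted colonies, which nearly touch. Fbn2 was at 1292, 1106 and 1696 against 5158, 3758 and 4215. Thbs1 and Thbs2, thrombospondins, were counted higher, with Thbs2 at 265, 81 and 116 against 49, 66 and 43.

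Beyond the lists, the largest higher values in the strongly shifted colonies included genes with little expression elsewhere. Miat, a long noncoding RNA of neural cells (chr5:112213228-112229395), was at 46, 23 and 23 in the controls, 37, 73 and 176 in the weakly and 6270, 9151 and 767 in the strongly shifted colonies. Its log2 difference of 5.48 was the largest among the genes named, at 7.64 within sgRNA1 and 2.75 within sgRNA2, and it shares exon sequence with an antisense gene. Bbox1, the last enzyme of carnitine synthesis, was at 51, 83 and 16 in the strongly shifted colonies and at 1 in each weakly shifted one. Cdh1, epithelial cadherin (chr8:106603351-106670246), was at 373, 179 and 229 in the strongly, 8, 6 and 40 in the weakly shifted and 1, 1 and 3 in the control libraries. Actc1, cardiac actin (chr2:114047282-114053548), was at 6159, 2894 and 4784 in the strongly, 379, 592 and 512 in the weakly shifted and 21, 3 and 9 in the control libraries. The muscle regulators Myod1 and Myog stayed at 0 to 3 in all edited colonies.

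For Fuca2 and Lrfn2 the weakly shifted colonies lay below all controls and the strongly shifted ones overlapped the controls. Fuca2, a fucosidase (chr10:13499540-13519035), was at 196, 199 and 193 in the controls and 121, 1127 and 524 in the strongly shifted colonies. T6g1-18 and T6g2-27 lay above the controls. The weakly shifted colonies were at 21, 23 and 20. Lrfn2, a synaptic adhesion protein, was at 552, 355 and 353 in the controls, 491, 650 and 263 in the strongly and 47, 73 and 19 in the weakly shifted colonies. Gja5, a connexin, had the sets on opposite sides of the controls (61, 57 and 64), at 167, 104 and 87 in the weakly and 9, 4 and 11 in the strongly shifted colonies.

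Other genes of large lower difference had several patterns. Some were below the controls in all edited colonies and lowest in the strong set, such as Adamts14, a matrix protease (chr10:61197112-61273438), at 2424, 3085 and 2983 in the controls, 372, 484 and 227 in the weakly and 13, 39 and 57 in the strongly shifted colonies. Gcnt4, a glycosyltransferase, was at 1053, 981 and 1279 in the weakly and 105, 132 and 176 in the strongly shifted colonies. Cox6a2 was at 153 in T6g2-9 and at 0 to 6 in the other 8 libraries. Atp2a3 was at 27, 9 and 306 in the weakly and 2, 0 and 2 in the strongly shifted colonies, with a log2 difference of -4.01 within sgRNA1 and -4.21 within sgRNA2. Lrrc32 was at 98, 103 and 87 in the controls, 138, 342 and 342 in the weakly and 16, 3 and 96 in the strongly shifted colonies, where T6g2-27 lay within the control range. Slc7a1, a transporter of cationic amino acids (chr5:148327410-148399904), was at 357, 681 and 578 against 2969, 2750 and 19539, below all of the controls (5281 to 6703) in every edited colony except T6g2-9.

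**Figure D5:**
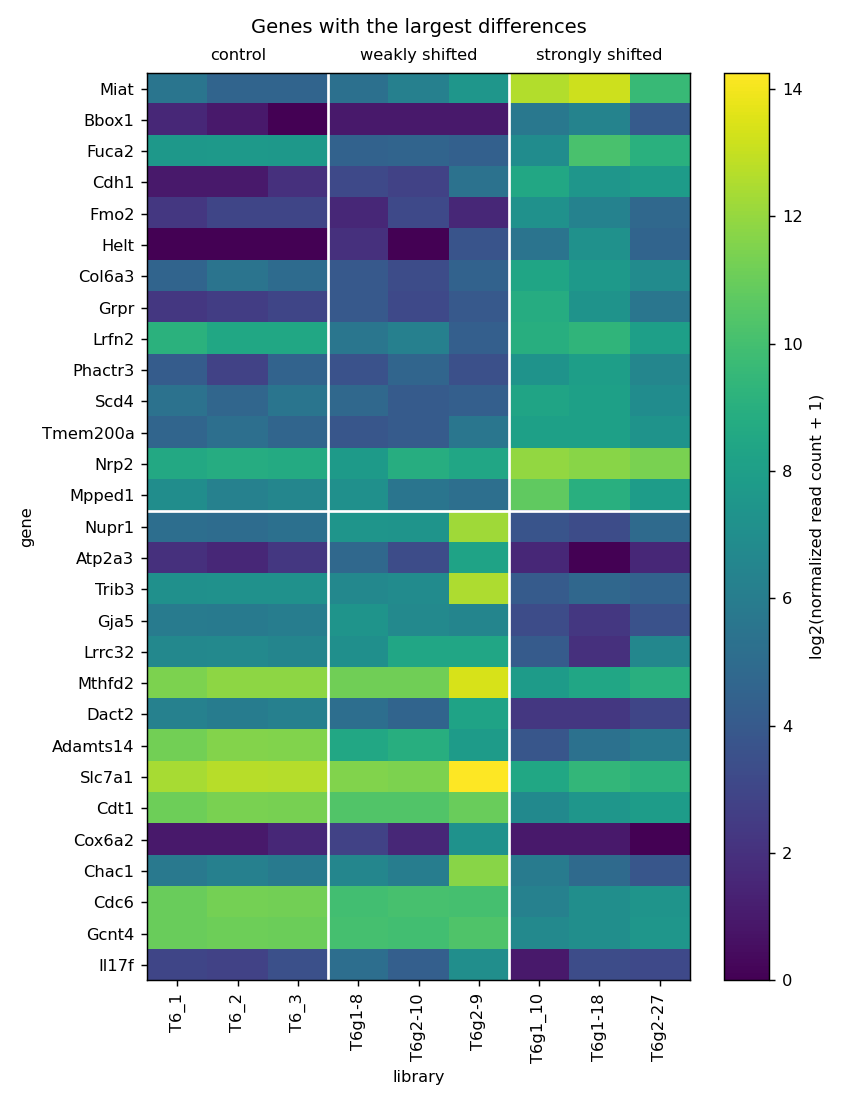
Heat map of log2(normalized read count + 1) in the 9 libraries for 14 of the 15 genes of largest higher and the 15 of largest lower difference between the sets, each row a gene and each column a library. Miat and Nrp2 are bright in the strongly shifted columns, and Nupr1, Trib3 and Chac1 are bright in T6g2-9.

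Single colonies also carried genes of their own. A gene was assigned to a colony where its log2 value lay at least 2 (4-fold) beyond all other 8 libraries. T6g2-9 had the most, 38 genes above and 20 below. T6g1-18 had 20 above and 12 below, T6g1_10 had 5 and 7, T6g2-27 had 4 and 6, T6g1-8 had 0 and 16, and T6g2-10 had 1 and 0. Thsd7b was at 82 in T6g2-9 and at 0 in the other libraries, and Gas6, a ligand of TAM receptors, was at 43 in T6g2-9 against 390 to 5361 elsewhere. In T6g1-18, Cadm2, a synaptic adhesion protein, was at 1120 against 15 to 126 elsewhere, and Tcirg1, a proton pump subunit, at 89 against 509 to 990. In T6g1_10, Pdk4, which restrains pyruvate oxidation, was at 934 against 0 to 77. T6g2-27 had Gpr37, a receptor of oligodendrocytes, at 437 against 1 to 79 and Gjc3, a glial connexin, at 5676 against 109 to 1230. T6g1-8 had Ptgr2, a prostaglandin reductase, at 210 against 1089 to 2987, and T6g2-10 had Tmem132e at 209 against 4 to 46.

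The guide is given by the labels and was not used to choose the sets, so sgRNA1 and sgRNA2 colonies were tested against each other (3 and 3, limma with Benjamini-Hochberg adjustment). None of the 15830 genes (0%) passed an adjusted p of 0.05, the smallest adjusted p was 0.961, and 190 genes had an unadjusted p under 0.05. By the count used for the sets, 39 genes (0.246%) were higher and 49 (0.31%) lower with sgRNA1. Gng2, a G protein subunit, was at 79, 106 and 17 with sgRNA1 (T6g1_10, T6g1-18, T6g1-8) and at 521, 1158 and 2497 with sgRNA2 (T6g2-10, T6g2-27, T6g2-9). Tfpi, an inhibitor of coagulation, was at 43, 44 and 34 with sgRNA1 and 176, 646 and 665 with sgRNA2. Prss35, a secreted serine protease, was at 161, 80 and 135 with sgRNA1 and 41, 27 and 39 with sgRNA2. None of these 3 overlapped between guides, yet each had an adjusted p of 0.961 (limma). A p above the threshold does not show that the guides act alike, since colonies of the same guide differed widely, with a median SD on the log2 scale of 0.322 within sgRNA1 and 0.344 within sgRNA2.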

How the data were processed

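Poly(A) RNA of 9 libraries was used: 3 control, 3 sgRNA1 and 3 sgRNA2 libraries, grouped by their labels. The submitters' processing notes list DESeq2, featureCounts and STAR 2.4.1d as tools and mm10 as the build. The deposited table holds a score per gene and library, a normalized read count that the authors scaled and rounded to whole numbers; this reading comes from the values, and raw counts were not used here. The totals of 39781901 to 42975283 are sums of normalized values, so they do not show the raw read depth of a library or its counting error. All edited colonies are separate clones, and p-values measure only the spread between them.

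Values were transformed as log2(value + 1), which understates the change of low genes, and genes averaging 10 or more across the 6 edited colonies were kept. The colonies, the 39 gene lists and the naming rule were chosen with earlier results of these data known. The sets were described without a test; guides were compared with limma 3.58.1 (R 4.3.3, mean-variance trend, two-sided, Benjamini-Hochberg). The naming rule took Gpd1, Gpd1l and Gpd2, the 15 largest differences each way averaging 50 or more in the higher set and no predicted, clone or small RNA symbol, up to 3 counted members each way per list, or the 2 highest where none was counted, the 3 genes farthest above and below in each colony and the 3 smallest p each way between guides. Other genes were named after their values were seen, and some genes and sites under the rule are not reported here.

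Positions and exon overlaps came from GENCODE M21 (GRCm38; 21823 of 21899 IDs matched), and promoter windows from RefSeq (GRCm38.p6). The fit was tested on simulated data. Alternatives were no filter, a minimum mean of 50, pseudocounts of 0.5 and 5, quantile and median-of-ratios rescaling, a log2 difference of at least 2, each guide alone, each colony left out, a correlation distance and, between guides, a replicate block. Python 3.11.15, numpy 2.4.6, pandas 2.3.3 and matplotlib 3.10.9 were used.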

Additional observations from a re-analysis of the deposited data

Results flagged for a closer look

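Of 163 values examined in the 6 edited colonies (39 list means and 124 named genes), 8 had 1 colony far from the other 5, by the ratio of its gap to the range; chance alone gives about 1 in 20. In T6g2-9 these were the integrated stress list mean, at 2.03 log2 units above control, and Trib3 at 5711, Chac1 at 3311 and Atf3, a stress-induced transcription factor, at 486. In the same colony Idh1, cytosolic isocitrate dehydrogenase, was at 10821 against 24383 to 34955 in the others. Hmgcs1, an enzyme of sterol synthesis, was at 12303 against 47942 to 84815, and Rps3, a ribosomal protein, was at 40381 against 27346 to 30168. In T6g1_10 the list mean of CDK inhibitors and antiproliferative genes was 0.843 above control, against 0.52 to 0.62 in the others.

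For 3 lists every strongly shifted colony lay on one side of its weakly shifted partners with sgRNA1 and on the other side with sgRNA2, and this difference was not tested. Other lists, cholesterol synthesis among them, also had mean differences of opposite sign with the guides, but their colonies overlapped within at least 1 guide. The mean difference was -0.0587 with sgRNA1 and 0.121 with sgRNA2 for glycerolipid synthesis, 0.136 and -0.0837 for hypoxia, and 0.402 and -0.32 for the interferon response. The glycerolipid list contains Gpd1, which differed by -3.34 with sgRNA1 and 0.32 with sgRNA2.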

How the results depend on the processing

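The counts of 900 genes higher and 876 lower became 147 and 117 with a log2 difference of at least 2. A higher limit can only keep part of the genes counted. With sgRNA1 colonies only, 2 against 1, the counts were 1677 and 1327, and the cause of this rise was not tested. Leaving out each colony in turn gave 869 to 1259 higher and 838 to 1149 lower, with 1259 and 1149 without T6g2-27 and 1148 and 1049 without T6g2-9. Fewer values must then lie apart, so a list count given without a colony can rise for this reason alone. Without a filter the counts were 1266 and 1058, and with sgRNA2 colonies only 902 and 824. The distance of T6g2-27 over that of T6g2-9, 1.08 as reported, was 1.18 with 1 minus the Pearson correlation. Of the list medians under alternatives, 355 moved by less than 1 SD between the sets' replicates and 35 by more; of the named genes, 1227 and 7. Between guides, limma called 0 genes under every alternative run; the smallest adjusted p was 0.146, without sgRNA1 replicate 3. A replicate block gave 0 calls, with 525 genes at an unadjusted p under 0.05 (limma). Same-numbered colonies had deviations from their guide means correlated at -0.346, 0.334 and 0.0776. Replicate 1 joins a strongly and a weakly shifted colony, replicate 2 joins strongly shifted and replicate 3 weakly shifted colonies. These correlations therefore depend on the sets and cannot decide whether same-numbered colonies share more than a number. Values below about 50 have larger counting error.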

Other observations

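Lysosome and autophagy genes were above control in all 6 colonies and overlapped between the sets. Their list mean was 0.96, 0.90 and 0.83 log2 units above control in the strongly shifted colonies and 0.47, 0.50 and 1.01 above it in the weakly shifted ones, so that T6g2-9 lay with the strong set. Of 33 measured, 1 (3.03%) was counted higher, against 5.69% of all genes, and 4 were counted higher without T6g2-9. The 1 counted was Wipi1, a protein of the forming autophagosome, at 3102, 3051 and 1801 against 946, 920 and 1195. A further 10 were higher and 4 lower without overlap by less than 2-fold, and 18 overlapped. Over all 15830 genes, 42.9% did not overlap between the sets, whatever the size of the difference.

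Several short or mixed lists had few counted genes: 0 of 22 for endoplasmic reticulum folding, 1 of 15 (lower) for heat shock chaperones, 2 higher and 2 lower of 21 for immediate-early genes (6 higher without T6g1_10 and 0 higher without T6g1-18), 1 of 20 (higher) for hypoxia, 1 higher and 1 lower of 26 for the interferon response (3 higher without T6g2-27) and 1 of 18 (higher) for antigen presentation (3 without T6g2-9). Over all genes, 5.69% were counted higher and 5.53% lower. H2-T23, a nonclassical class I molecule, was at 580, 331 and 275 in the strongly and 82, 78 and 130 in the weakly shifted colonies. Bst2, an interferon-induced membrane protein, was at 55, 54 and 63 against 161, 149 and 316. H2afz and H2afx, histone variants whose transcripts carry poly(A) tails, were the 2 of 17 histone genes counted lower (5 without T6g2-27 or without T6g1-8), with H2afz at 367, 337 and 483 against 1031, 962 and 966.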
